A study of Homo sapiens with 12 samples.

Results

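Labelled RNA of human melanoma cells was followed late in a chase, by setting the 6 h libraries against the 3 h libraries of BRIC-seq. BRIC-seq marks newly made RNA with the nucleoside 5-bromouridine (BrU). The BrU is then replaced by an unlabelled nucleoside, marked RNA is recovered with an antibody and sequenced, and its loss over hours of chase is read from the counts. The libraries were chosen by their labelled line and chase time, and 4 of the 12 libraries of the series were compared. They are the MIR211 line at 6 h, A375 at 6 h, the MIR211 line at 3 h and A375 at 3 h, with 1 library each. A375 is an established melanoma line obtained from ATCC, and the MIR211 line is derived from it and overexpresses MIR211, which encodes miR-211. Cells of both lines had been kept in BrU for 24 h before the chase. The labels do not give the promoter of the transgene, whether the line is 1 clone, or whether the libraries came from separate cultures. No line was replicated at any time. The p-values below therefore set each change against how far the lines differed in their course over the chase. That spread may be technical or a real difference between the lines. All 16594 genes that passed a filter on low counts were tested, of 60675 listed, and 27774 of those listed had at least 1 count at 3 h or 6 h.

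An mRNA is lost mainly by shortening of its poly(A) tail, removal of its cap and digestion by exonucleases. Proteins that bind its 3′ UTR set the pace. AU-rich elements and Pumilio sites recruit deadenylases, and a microRNA recruits them through bases that pair with its seed. Messages of transcription factors and signalling proteins are known to be short-lived, and those of ribosomal, metabolic and secretory proteins long-lived. A count in these libraries gives a gene's share of the labelled RNA and not its amount. "Rose" and "fell" therefore mean higher or lower at 6 h than at 3 h relative to the labelled RNA scaled by TMM, and a gene whose share rose may have been lost in amount. In bulk RNA, fewer cells of a type and less RNA per cell cannot be told apart.

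The libraries held 6.66 M counts in the MIR211 line and 7.28 M in A375 at 6 h, against 6.26 M and 6.81 M at 3 h. The RNA of the large mitochondrial ribosomal subunit, MT-RNR2, took 26.4% (95% Clopper-Pearson interval 26.36 to 26.43) of all counts in the MIR211 line and 26.9% (26.90 to 26.97) in A375 at 6 h, against 16.7% (16.67 to 16.73) and 15.1% (15.11 to 15.17) at 3 h. These intervals, like those below, cover counting error only. Among 18 genes of the melanocyte lineage, 11 were tested. SOX10 stood at 13.5 and 32.2 CPM at 6 h in the MIR211 line and A375, against 16.7 and 58.3 CPM at 3 h, and MITF at 9.08 and 17.5 CPM against 14.5 and 43.4 CPM. The pigment gene TYR had no count in any BRIC-seq library, and TYRP1 had 39 counts over all 8. Of the defining markers of other cells, KRT5 and KRT14 of keratinocytes, PTPRC of leukocytes and CDH5 of endothelium had no count, but other members of such lists were present. LUM of fibroblasts stood at 132 CPM in the MIR211 line and 5.10 CPM in A375 at 6 h, against 62.3 and 2.55 CPM at 3 h. KDR of endothelium stood at 34.6 and 0.61 CPM at 6 h, against 48.5 and 2.41 CPM at 3 h, and CD68 of myeloid cells at 102 and 14.1 CPM, against 30.5 and 5.10 CPM. MIR211 itself had 3 counts in the MIR211 line at 6 h, against 2 at 3 h, and 0 in A375 at both times. These are too few to compare, and the libraries do not measure the mature microRNA.

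The sequences that bear on the results below are the microRNA that differs by design between the lines and short windows around sites in 3′ UTRs. The windows are from genes that fell late, fell only late, or fell before 3 h, as read with TMM scaling. The mature microRNA is from RefSeq (GRCh38.p14, chr15:31065095-31065116, minus strand), with its seed, bases 2 to 8, in capitals. The UTR windows are from the GENCODE 44 canonical transcripts and the hg38 genome, given 5′ to 3′ on the transcript strand, with the Pumilio motif TGTANATA in capitals. Only genes that carry the motif are shown. Other named genes have none in the 3′ UTR, among them HAPSTR1, SHISA2, MTX3, HSDL1 and ZBTB6.
hsa-miR-211-5p: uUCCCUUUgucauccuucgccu
PLEKHA1, fell late (chr10:122430693-122430716, plus strand): ccaagtttTGTAAATAgttgttat
TGFBR2, fell late (chr3:30691875-30691898, plus strand): ttaatgccTGTATATAaatatgaa
SLFN5, fell late (chr17:35269348-35269371, plus strand): cattcacaTGTATATAattaagat
PCDH17, fell only late (chr13:57726762-57726785, plus strand): tctgcctgTGTAGATAttatgcca
EFNA5, fell only late (chr5:107378136-107378159, minus strand): acctctgtTGTACATAgtgtttga
SPRY4, fell before 3 h (chr5:142313619-142313642, minus strand): gttcctatTGTATATActtgggag
DUSP6, fell before 3 h (chr12:89348744-89348767, minus strand): ttgattatTGTAAATAtttgatct
In the next 2 windows the capitals mark AAAGGGA, the complement of the miR-211 seed, in 2 genes reported as miR-211 targets.
TGFBR2 (chr3:30693915-30693937, plus strand): ctatacatAAAGGGAaagtttta
RAB22A (chr20:58359910-58359932, plus strand): tagtgtacAAAGGGActacatcg

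Between 3 h and 6 h the labelled pool changed broadly. Of the genes tested, 2414 fell (14.5%) and 2509 rose (15.1%) at an adjusted p under 0.05 by edgeR's quasi-likelihood test, with the line as a paired term, and 6840 had an unadjusted p under 0.05. The median change over all genes tested was -0.07 on the log2 scale, that of the genes that fell -1.22 and that of those that rose 1.15. The change had the same sign in both lines for 75.2% of the genes tested. Across genes, which are not independent replicates and share their libraries, the per-line changes had a Pearson r of 0.43 and a Spearman rho of 0.61. The signs were opposite in 20.4% of the genes tested. No gene of the 158 named ones moved opposite ways in the lines beyond both counting intervals. Naming favoured genes of the same sign or with a small p in the paired test, so that count does not measure agreement. The difference between lines was not tested.

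**Figure D1:**
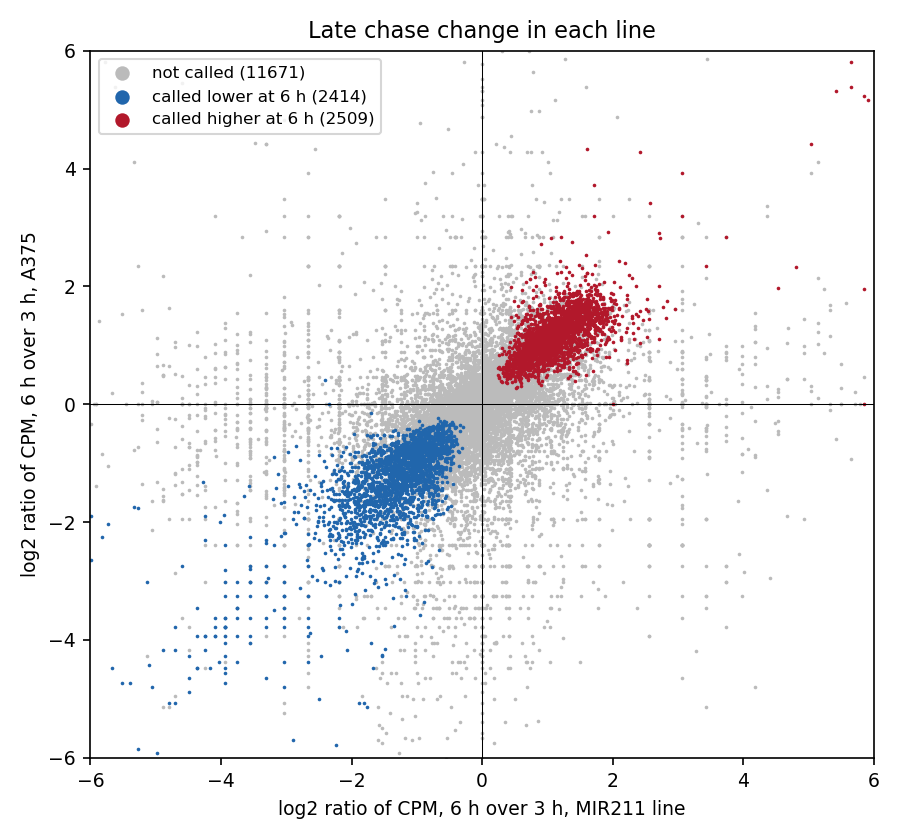
Late chase change of each gene tested, as the log2 ratio of CPM at 6 h over 3 h (0.1 CPM added), in the MIR211 line (x axis) and in A375 (y axis), with 1 library per line and time. The 2414 genes called lower lie mainly in the lower left and the 2509 called higher in the upper right, with TMM scaling; 89 genes lie outside the axes.

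These counts were lower with any 1 of the 4 libraries left out. With the MIR211 line left out at 3 h the test called 912 genes lower and 882 higher, and with it left out at 6 h 1358 and 1866. With A375 left out at 3 h the counts were 1050 and 905, and with it left out at 6 h 1153 and 1556. The scaling sets the direction of many genes. With RLE size factors 11.5% of the genes tested were called lower and 18.4% higher, and with total counts 29.6% and 4.74%. When the glycolysis genes were held constant, 59.5% were called lower and 0.114% higher, and when the row labelled BRIC was held constant, 66.6% and 0.127%. The last 3 settings shifted the median change by -0.58, -1.45 and -1.75, so a fall could hardly turn there. All 2414 genes above were still called lower in them, which does not test the falls. RLE factors shifted the median by 0.17, and 1908 of the 2414 were still called lower. Of the 2509 genes, 19 were still called higher with glycolysis constant. Of the gene lists below, the ribosomal, zinc finger and snoRNA host lists each kept 1 gene called higher in that setting, and no other list kept any.

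HAPSTR1, which encodes a stress response protein that works with the ubiquitin ligase HUWE1, had the largest late fall of those named. It stood at 5.65 CPM in the MIR211 line and 4.89 CPM in A375 at 6 h, against 104 and 111 CPM at 3 h. Both 6 h values lay far below both 3 h values, a change of -4.35 ± 0.19 (log2, SE; edgeR adjusted p = 0.00199). SHISA2, an inhibitor of Wnt and FGF signalling that acts in the endoplasmic reticulum, had 24.8 and 26.3 CPM at 6 h, against 135 and 186 CPM at 3 h. Its groups did not overlap and it fell by 2.63 on the log2 scale (edgeR adjusted p = 0.00199). SLFN5, a member of the Schlafen family, had 24.3 and 8.15 CPM at 6 h, against 117 and 65.9 CPM at 3 h, with a change of -2.57 (edgeR adjusted p = 0.00247). PLEKHA1, which binds a phosphoinositide lipid at the plasma membrane, had 27.5 and 17.9 CPM at 6 h, against 104 and 128 CPM at 3 h, and changed by -2.36. TGFBR2, the type 2 receptor of TGF-beta and a reported miR-211 target, had 6.63 and 3.06 CPM at 6 h, against 30.5 and 17.3 CPM at 3 h. It fell 4.59-fold in the MIR211 line and 5.66-fold in A375 (-2.36 ± 0.25, edgeR adjusted p = 0.00247).

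ATXN7L3B, a relative of a subunit of the SAGA deubiquitinase (-2.69), C18orf25, a relative of the ubiquitin ligase Arkadia (-2.44), and the noncoding EBLN3P (-2.93) fell in both lines as well. RGPD6 fell by 2.75 on the log2 scale, but its near-identical copies can share its reads and its value is uncertain. The remaining named falls were uneven between lines. DGKI, a diacylglycerol kinase, had 1.47 CPM in the MIR211 line and 7.75 CPM in A375 at 6 h, against 4.30 and 139 CPM at 3 h. SESN1, a p53-induced regulator of growth signalling, had 0.74 and 8.97 CPM at 6 h, against 13.4 and 36.0 CPM at 3 h. JPT2, a microtubule-associated protein, had 6.14 and 4.48 CPM at 6 h, against 121 and 11.3 CPM at 3 h. It rested on the 3 h library of the MIR211 line. DGKI lost its call without either A375 library, SESN1 without either 3 h library, and JPT2 without any of the libraries except A375 at 3 h.

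Among the genes that rose, MMP2, a gelatinase that degrades matrix, had 254 CPM in the MIR211 line and 6.11 CPM in A375 at 6 h, against 44.2 and 1.70 CPM at 3 h. It rose 5.74-fold in the MIR211 line and 3.59-fold in A375, a change of 2.30 ± 0.22 (log2, SE; edgeR adjusted p = 0.00216), although its level differed widely between the lines. SNHG29, a noncoding host of small nucleolar RNAs, had 181 and 145 CPM at 6 h, against 41.9 and 36.1 CPM at 3 h (2.06, edgeR adjusted p = 0.00199). RPS3A, a protein of the small ribosomal subunit, had 238 and 175 CPM at 6 h, against 50.9 and 50.5 CPM at 3 h, and PKM, the last enzyme of glycolysis, had 1009 and 338 CPM against 204 and 131 CPM. The 6 h values of both genes lay above both 3 h values. LGALS3BP, a secreted galectin-binding glycoprotein (2.03), HACD3, an enzyme of fatty acid elongation (1.91), and CHRDL1, a secreted BMP antagonist (1.96), rose in both lines. SELENON, SUMF2, SERPINA3, NME2 and FKBP1A were the other named rises, at 1.84 to 1.98. SELENON lost its call without A375 at 6 h, NME2 without any of the 4 libraries, SUMF2 without either 3 h library, SERPINA3 without the MIR211 line at 3 h or A375 at 6 h, and FKBP1A without either MIR211 line library or A375 at 3 h. With glycolysis genes constant, which shifted the median by -1.45, all 59 named falls and 4 of the 76 named rises kept their call. These 4 are MMP2, SNHG29, RPS3A and RSAD1, described below.

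**Figure D2:**
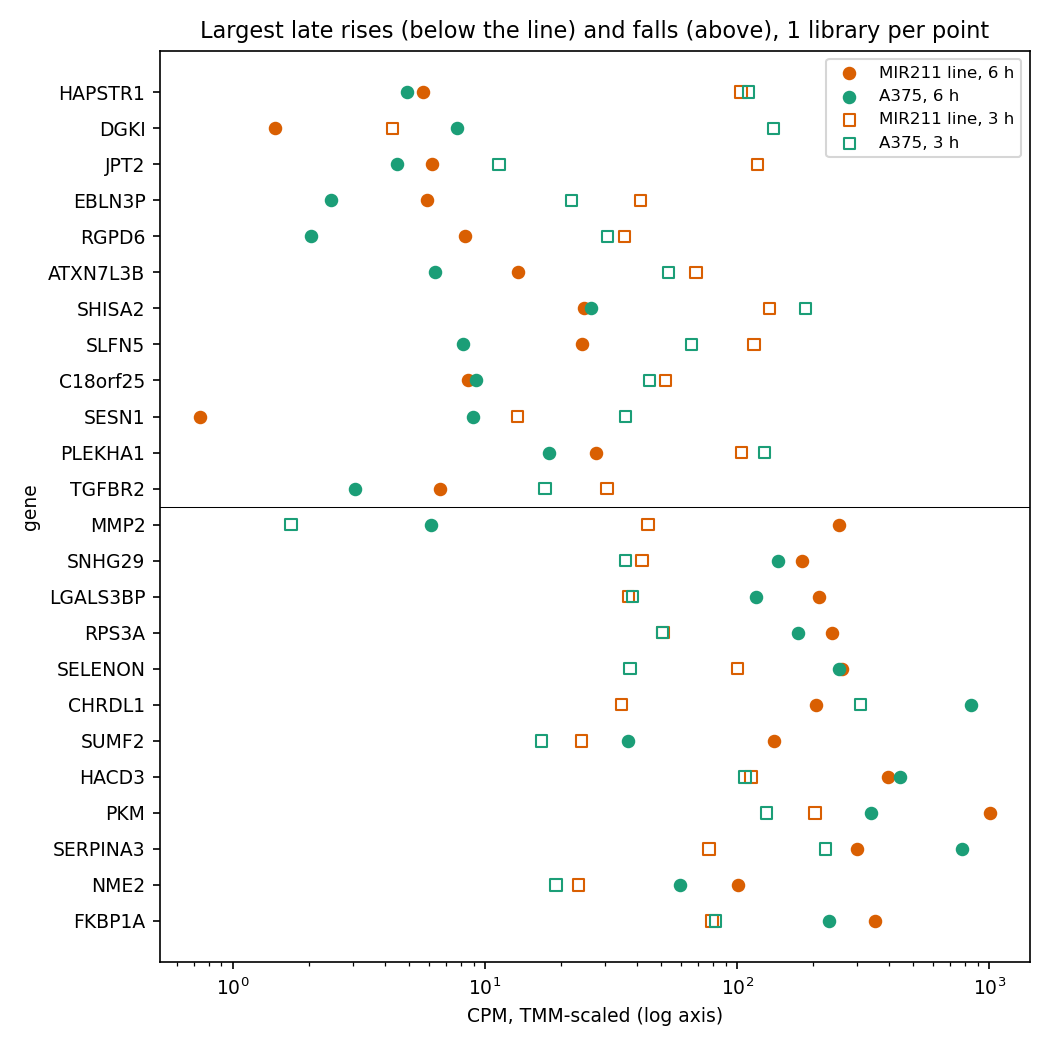
TMM-scaled CPM (log axis) of the 12 largest falls (above the line) and 12 largest rises (below it) at 6 h (filled circles) and 3 h (open squares), in the MIR211 line (orange) and A375 (green), with 1 library per point. For each gene the 6 h values lie on the same side of the 3 h value of their own line; MMP2, SNHG29 and RPS3A are the rises here that keep their call when glycolysis genes are held constant.

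Whether a gene fell faster after 3 h than before it was tested as 1 contrast, the change per hour from 3 h to 6 h minus that from 0 h to 3 h. It was negative in 563 genes (3.39%) and positive in 334 (2.01%), and 459 of the negative ones also fell late. Most late falls, 1944 of 2414, had no detectable change of rate. Among the late falls, 352 genes began to fall only after 3 h under TMM scaling. They fell faster late and stood no lower at 3 h than at 0 h in either line. That level at 3 h was read with TMM scaling alone and not in other scalings. From 0 h to 3 h GAPDH rose by 1.66 on this log2 scale, and the late-onset gene PCDH17 by 0.86. The 352 genes had a median late change of -1.13. With the early rate taken from 0 h to 1 h, 27 of the 352 were called. Without any 1 of the 4 libraries the rate calls of the 352 were lost, although many of these genes were still called lower. Rate calls were lost over nearly all genes in such fits, which leave 1 library at that time. The loss is therefore not particular to the 352. With the row labelled BRIC held constant, 5 of the 352 passed both the late test and the rate test. That row held only 3 counts at 0 h in each line, so its scaling of the early rate is imprecise.

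UBXN2B, an adaptor of the segregase p97, showed the steepest late onset. In the MIR211 line it had 66.99, 69.4, 106 and 20.6 CPM at 0, 1, 3 and 6 h, and in A375 25.6, 82.7, 119 and 29.1 CPM. Its rate difference was -1.16 ± 0.24 log2 per hour (SE; edgeR adjusted p = 0.0476). PCDH17, a protocadherin, had 13.2, 24.3, 27.6 and 5.40 CPM in the MIR211 line and 22.0, 29.8, 35.2 and 7.54 CPM in A375 at these times. EFNA5, a membrane-bound ephrin ligand, had 20.2, 28.5, 28.5 and 8.10 CPM and 13.9, 20.5, 22.5 and 2.45 CPM. SAMD9, an interferon-induced antiviral factor, had 103, 179, 198 and 70.2 CPM and 32.6, 43.3, 53.3 and 12.8 CPM. All 4 genes stood higher at 3 h than at 0 h in both lines and lower at 6 h than at 3 h. The noncoding DUXAP8, MTX3 of the mitochondrial outer membrane, HSDL1 of the hydroxysteroid dehydrogenase family and the UFM1 ligase UFL1 had rate differences of -0.92 to -1.11 log2 per hour and late changes of -1.60 to -2.28. Without at least 1 of the libraries, UBXN2B, DUXAP8, MTX3 and UFL1 also lost the call of their late fall.

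**Figure D3:**
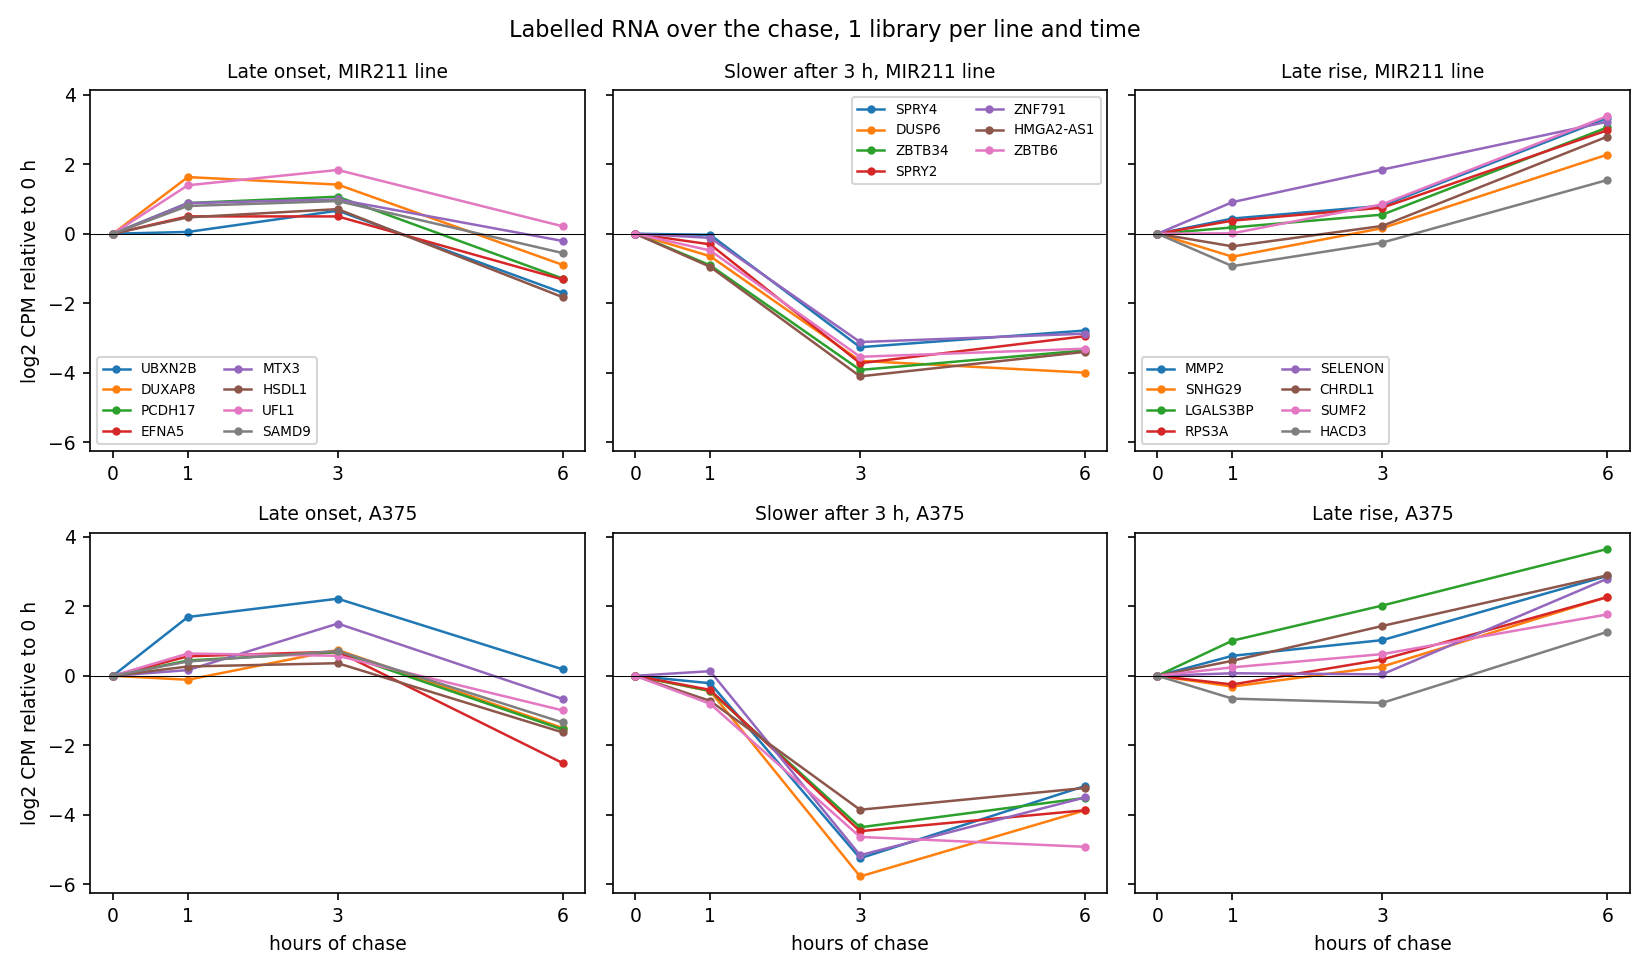
Log2 CPM relative to 0 h over the chase (0, 1, 3 and 6 h) for the 8 late-onset genes, 7 genes that fell before 3 h, and 8 late rises, in the MIR211 line (top) and A375 (bottom), with 1 library per point. On TMM-scaled CPM, the late-onset genes stand above 0 at 3 h and drop by 6 h. The second set is down by at least 3 log2 units at 3 h. The rises, which depend on TMM scaling, are highest at 6 h.

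The early change, 1 h against 0 h, called no gene with edgeR (0%; 2954 had an unadjusted p under 0.05), while DESeq2 called 254 lower and 491 higher. Its libraries do not enter the late contrast, but they enter the estimate of spread behind the late calls, so the shares that follow are not independent of those calls. Of the 2414 genes that fell late, 59.1% were higher at 1 h than at 0 h in both lines, compared with 35.8% of all genes tested, and 14.8% were lower in both, compared with 31.2%. Genes that rose late were higher at 1 h in both lines in 49.7% of cases.

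A set of genes that fell before 3 h and had a positive rate difference was picked after its values were seen, since the naming rule for such genes required an early call and none was made. SPRY4, an inhibitor of receptor tyrosine kinase signalling, had 98.0, 95.9, 10.2 and 14.2 CPM in the MIR211 line and 495, 427, 13.0 and 55.0 CPM in A375 at 0, 1, 3 and 6 h. DUSP6, the phosphatase that acts on ERK, had 58.7, 37.5, 4.66 and 3.68 CPM and 77.4, 57.0, 1.42 and 5.30 CPM. SPRY2 had 47.3, 38.3, 3.58 and 6.14 CPM and 170, 128, 7.66 and 11.6 CPM. These transcripts were low at 3 h in both lines and their late changes did not pass the test (edgeR adjusted p = 0.0949, 0.496 and 0.142). DUSP6 turned to -0.32 without A375 at 3 h. RSAD1, a mitochondrial radical SAM protein, did not follow a decay curve. It had 31.6, 29.1, 1.97 and 13.5 CPM in the MIR211 line and 37.3, 44.4, 2.69 and 20.8 CPM in A375, low in both 3 h libraries and higher at 6 h (2.86 ± 0.22, edgeR adjusted p = 0.00199).

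Several ERK output genes were among the late falls. Of 19 ERK output genes, 9 fell and none rose, with a median of -0.75. The falls included the ERK inhibitors SPRED1, with 27.2 and 21.2 CPM at 6 h against 75.4 and 61.7 CPM at 3 h (-1.50, edgeR adjusted p = 0.00225), and SPRED2, the phosphatase DUSP4 (-1.06), PHLDA1 (-1.06), ETV1 (-1.12), ETV5 (-0.75) and the cyclin CCND1 (-0.91). In 6 of the 19 the rate difference was positive, among them PHLDA1, DUSP4 and IER3, and CCND1 was the only member with a negative one. Immediate early and AU-rich mRNAs gave 2 falls and no rise among 30 tested, with a median of -0.53, beside 14.5% and 15.1% of all genes. The count of falls is too small to be told from the share over all genes. CXCL8, a chemokine, fell to 58.4 CPM in the MIR211 line and 1.43 CPM in A375 at 6 h, against 122 and 1.98 CPM at 3 h, and FOSL1, an AP-1 subunit, fell by 0.94 on the log2 scale. MYC stood at 0.74 and 0.61 CPM at 6 h, against 1.79 and 1.70 CPM at 3 h, close to the lower limit of what the libraries resolve (-1.35, edgeR adjusted p = 0.0720). FOSL1 lost its call without any of the 4 libraries, CXCL8 without either MIR211 line library, DUSP4 without either A375 library, SPRED2 without A375 at 3 h or the MIR211 line at 6 h, and PHLDA1 without the MIR211 line at 3 h.

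Among 41 decay and 3′ UTR binding factors, 16 fell, 24 were not called and 1, HNRNPD, rose, with a median of -0.48, beside falls in 14.5% of all genes tested. TNRC6B, the scaffold of microRNA silencing, had 48.6 and 47.7 CPM at 6 h, against 201 and 158 CPM at 3 h (-1.89 ± 0.14, edgeR adjusted p = 0.00199), and it fell faster late than early. The decapping factor DCP1A (-1.75), the deadenylase subunit CNOT4 (-1.53) and the Pumilio protein PUM2 (-0.93) were lower in both lines. CNOT6, DCP2, TNRC6A and TNRC6C were among the other falls.

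**Figure D4:**
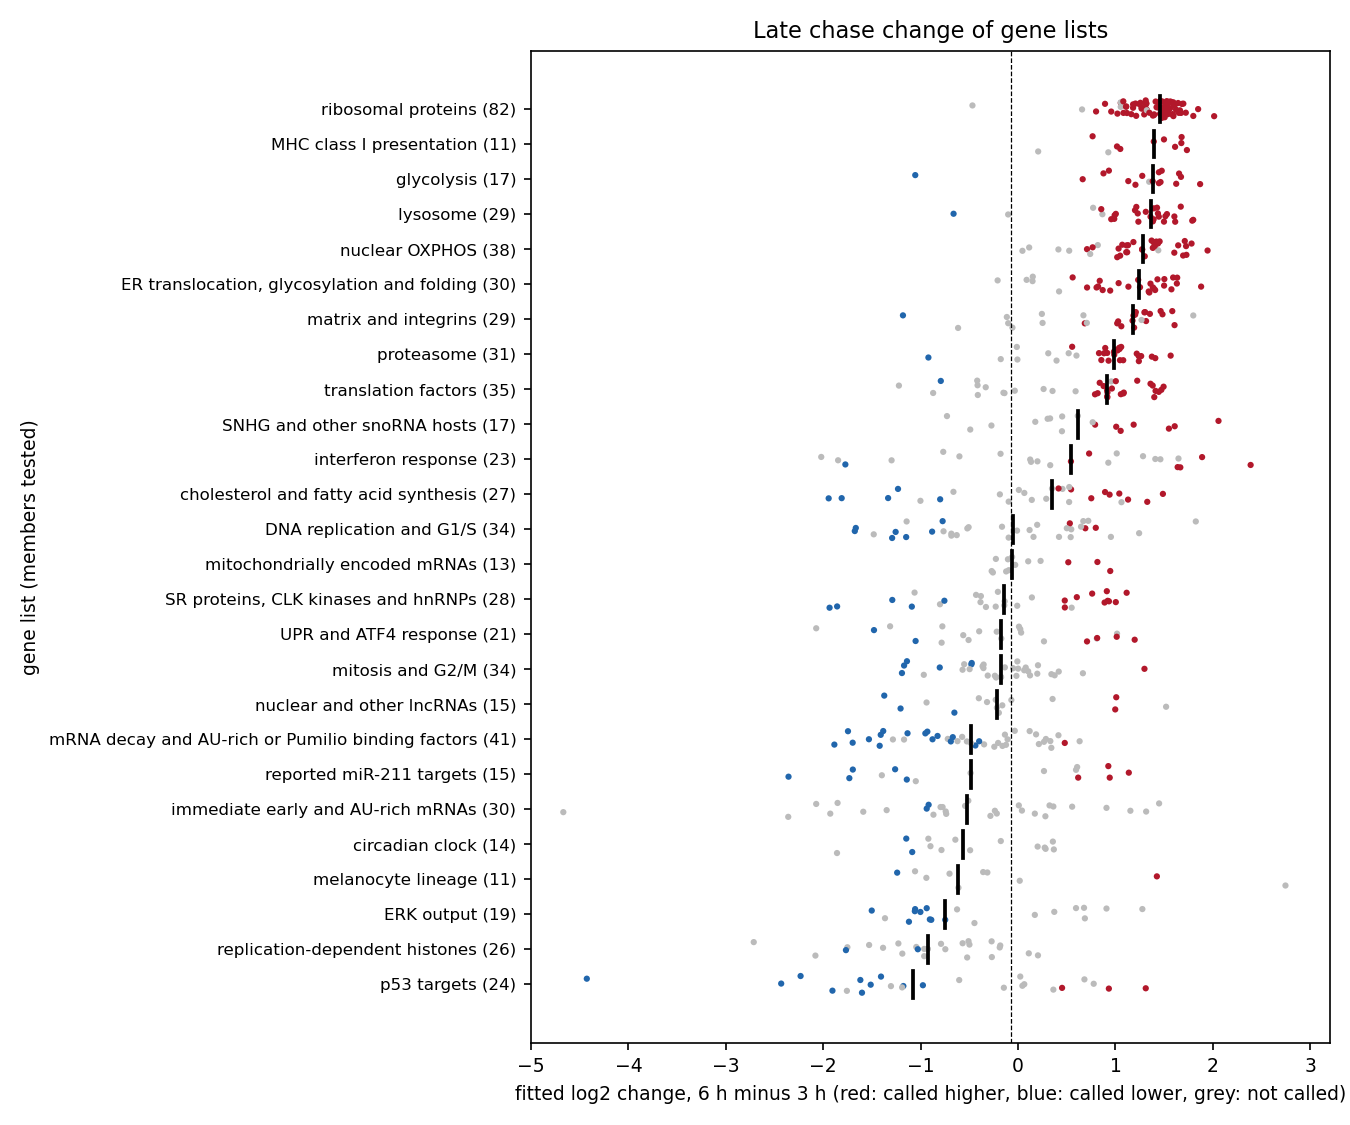
Fitted late change (log2, 6 h minus 3 h) of each member tested of 26 lists with at least 10 tested members (the zinc finger list, which also has as many, is not plotted), with the list median (bar) and the median of all genes (dashed line); red points rose, blue points fell and grey points were not called. Ribosomal, metabolic and secretory lists lie to the right under TMM scaling, and their rises are nearly all lost when glycolysis genes or the BRIC row are held constant. 1 member lies outside the axis.

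The p53 targets had the lowest median of all the lists plotted, -1.08. Of 24 tested, 10 fell and 3 (CCNG1, BAX and FDXR) rose. MDM2, the ubiquitin ligase that removes p53, had 89.9 CPM in the MIR211 line and 324 CPM in A375 at 6 h, against 403 and 703 CPM at 3 h (-1.60, edgeR adjusted p = 0.00690). TNFRSF10B, a TRAIL death receptor, had 70.0 and 74.8 CPM at 6 h, against 198 and 215 CPM at 3 h (-1.51, edgeR adjusted p = 0.00199), and fell faster late than early, as did the cell cycle inhibitor CDKN1A (-1.18). Zinc finger genes fell in 62 and rose in 3 of 429 tested. Their share of falls was close to the 14.5% of all genes, but their share of rises was far below the 15.1% of all genes. Their median was -0.57, beside -0.07 over all genes. ZNF609, ZNF638, ZNF460 and ZNF318 changed by -1.33 to -1.70. The mitotic, replication and histone lists gave counts of falls too small to be told from the 14.5% share of all genes. They gave 1, 3 and 0 rises, beside 15.1% of all genes. Among the 34 mitotic genes 6 fell, including AURKA (45.9 and 46.9 CPM at 6 h, against 96.4 and 108 CPM at 3 h), KIF11 and CCNA2, and PTTG1, the securin, rose (1.30). CCNA2 lost its call without A375 at 3 h or the MIR211 line at 6 h, and KIF11 and PTTG1 without the MIR211 line at 3 h. Of the 34 replication genes 7 fell, with CDC6, the origin licensing factor, at -1.68, and 3 rose. The histone genes, whose messages lack a poly(A) tail, gave 2 falls of 26 tested, H4C15 and H1-3, and neither call held without any of the 4 libraries.

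Genes of cholesterol and fatty acid synthesis moved in both directions. Of 27 tested, 5 fell and 9 rose, beside 14.5% and 15.1% of all genes tested. SQLE, squalene epoxidase, had 12.5 and 29.8 CPM at 6 h, against 48.7 and 95.4 CPM at 3 h (-1.81, edgeR adjusted p = 0.00222), and IDI1, MSMO1 and HMGCS1 were among the other falls. FASN, the fatty acid synthase, had 187 and 246 CPM at 6 h, against 74.7 and 97.7 CPM at 3 h (1.33), and ACLY, ACACA, SCD, FDPS, LSS, DHCR7, TM7SF2 and SREBF2 were the other rises; none of the 9 was called higher with glycolysis genes constant.

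Ribosomal protein genes rose together under TMM scaling. Of 82 ribosomal protein genes 77 rose and none fell, with a median of 1.46, and 81 moved the same way in both lines. Over all genes tested, 15.1% rose and 14.5% fell. RPS4X had 1557 and 1234 CPM at 6 h, against 522 and 423 CPM at 3 h (1.56 ± 0.09, edgeR adjusted p = 0.00199). With glycolysis genes constant, 1 ribosomal gene was called higher and 3 lower. Translation factors gave 21 rises and 1 fall of 35, with 13 not called, and in that setting none higher and 23 lower. Hosts of small nucleolar RNAs gave 7 rises of 17, with 10 not called, and in that setting 1 higher and 7 lower. RNAs from processed pseudogenes rose in 458 of 1673 (27.4%), and these copies can share reads with their parent genes. Over all kinds of gene, 19 were called higher with glycolysis genes constant.

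Most metabolic genes rose under TMM scaling. Of 17 glycolysis genes 15 rose, beside 15.1% of all genes tested, and HK2, a hexokinase, fell (-1.06). GAPDH had 3560 CPM in the MIR211 line and 2497 CPM in A375 at 6 h, against 1130 and 774 CPM at 3 h (1.67 ± 0.11). Its rate difference was 0.01 (edgeR adjusted p = 0.971), and no change of rate was detectable. Of 38 nuclear genes of oxidative phosphorylation, 31 rose and none fell (median 1.29), with ATP5F1B at 2228 and 902 CPM at 6 h against 914 and 311 CPM at 3 h. The mitochondrially encoded mRNAs were mostly flat, with 3 rises (MT-ND3, MT-ND5 and MT-ND6) of 13 and a median of -0.06, while both mitochondrial rRNAs rose. MT-RNR2 stood at 431750 and 399580 CPM at 6 h, against 187170 and 146110 CPM at 3 h. With glycolysis genes constant, no OXPHOS gene was called higher and 6 lower, and 12 of the 13 mitochondrial mRNAs were called lower. MT-ND3 and MT-ND6 lost their calls without either 3 h library or the MIR211 line at 6 h, and MT-ND5 without either 3 h library.

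Secretory, lysosomal and matrix genes rose in the same scaling. Of 30 genes of the endoplasmic reticulum 25 rose and none fell, and of 29 lysosomal genes 25 rose and ATP6V1B2, a subunit of the proton pump, fell. Among all genes tested, 15.1% rose and 14.5% fell. HSP90B1, the endoplasmic reticulum chaperone GRP94, had 8752 and 3083 CPM at 6 h, against 3196 and 1049 CPM at 3 h. SPARC, a matrix glycoprotein, had 9240 and 1364 CPM against 3182 and 427 CPM (1.61, edgeR adjusted p = 0.00199), and 17 other genes of 29 in the matrix and integrin list rose, while the collagen receptor subunit ITGA2 fell. Of 31 proteasome genes 23 rose and PSMD12 fell, and of 11 genes of MHC class I presentation 9 rose, HLA-B among them (1.73). With glycolysis genes constant, none of these 5 lists kept a gene called higher, and 11 endoplasmic reticulum, 5 lysosomal, 9 matrix, 12 proteasome and 1 MHC class I genes were called lower.

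Other lists were mixed, and the counts of the unfolded protein, lncRNA and clock lists are too small to be told from the shares over all genes, 14.5% lower and 15.1% higher. Interferon response genes gave 6 rises, IFITM3 (1.67) among them, and 1 fall, IFIT1, of 23. Of 21 genes of the unfolded protein and ATF4 response 4 rose and 2 fell, and of 28 splicing genes 10 rose and 5 fell. The splicing falls included SRSF8 (-1.94) and HNRNPF (-1.86), and the rises HNRNPA2B1 (0.89) and HNRNPM (0.92). Of 15 other lncRNAs 2 rose and 3 fell. MALAT1 rose (1.01), while NORAD, a noncoding RNA that binds Pumilio proteins, had 114 and 82.3 CPM at 6 h, against 248 and 202 CPM at 3 h, and fell faster late (-1.21, edgeR adjusted p = 0.00278). The clock genes CRY1 and NR1D2 fell among 14 tested, but CRY1 lost its call without either A375 library or the MIR211 line at 3 h, and NR1D2 without either MIR211 line library. With glycolysis genes constant, none of these lists kept a gene called higher.

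Reported miR-211 targets moved in both directions in the late interval, in both lines. Of 15 tested, 5 fell and 4 rose, beside 14.5% and 15.1% of all genes tested, with a median of -0.49 beside -0.07 over all genes. RAB22A, a small GTPase of endosomes, had 16.9 CPM in the MIR211 line and 14.1 CPM in A375 at 6 h, against 53.2 and 49.5 CPM at 3 h (-1.73, edgeR adjusted p = 0.00199), and it fell faster late. SOX11, TGFBR2, NUAK1 and PDK4 were the other falls. IGF2R, the mannose 6-phosphate receptor, had 539 and 444 CPM at 6 h, against 242 and 205 CPM at 3 h (1.14), and SERINC3, IGFBP5 and KCNMA1 also rose. DUSP3, a phosphatase, had 8.59 and 12.2 CPM at 6 h, against 12.4 and 31.6 CPM at 3 h (-1.05 ± 0.46, edgeR adjusted p = 0.140). Melanocyte genes gave 1 rise, DCT (1.43), and 1 fall, RAB38 (-1.24), of 11. Of the markers of other cell types, CD68 and LYZ rose among the leukocyte genes, with sums of 153 and 21.6 CPM at 6 h against 50.5 and 9.07 CPM at 3 h, and their part in the other results was not tested. None of the 1 keratinocyte, 6 fibroblast and 1 endothelial markers tested was called, and none of 18 small structural RNAs passed the count filter. RAB38, CD68 and LYZ lost their calls without A375 at 3 h or either MIR211 line library.

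The genes that fell late carried longer 3′ UTRs. Over 11800 genes with an annotated 3′ UTR, the median length was 2486 bases in genes that fell, 2659 in late-onset genes and 782 in genes that rose, beside 1510 in all. The share with at least 1 Pumilio motif TGTANATA, searched on the transcript strand, was 51.0% of genes that fell, 47.0% of late-onset genes, 17.9% of genes that rose and 32.7% of all. The share also grew with UTR length in all genes, so they were split into 3 length classes of about equal size. In the shortest class the motif was present in 23.4% of genes that fell and 5.15% of those that rose, against 11.2% of all. In the middle class the shares were 42.9%, 21.5% and 30.7%, and in the longest 63.8%, 47.4% and 56.1%. In each class more of the falling than of the rising genes carried it. The classes did not match length, with medians of 477 against 339, 1578 against 1411 and 3966 against 3491 bases in falling and rising genes. UTRs of falling genes also held more A and T, with a median of 62.7% against 58.7%. The part of either in the motif shares was not tested. Among late-onset genes the shares were 27.0%, 43.0% and 53.1%, below that of all genes in the longest class. Genes with a positive rate difference carried the motif in 43.6% overall and in 77.0% of the longest class. With 0.36 motifs per kb of UTR, compared with 0.29 in genes that fell late, it was densest in this set. The set is mixed, since 97 of all 334 genes with a positive rate difference rose late. The AU-rich nonamer TTATTTATT was present in 14.98% of genes that fell, 6.82% of those that rose and 10.4% of all, and within length classes its shares in the falling genes were 2.93%, 9.88% and 21.6%, beside 2.75%, 8.21% and 20.2% in all genes. The seed complement AAAGGGA was present in 29.3% of falling, 13.5% of rising and 20.9% of all genes. Within length classes the shares were 4.24%, 19.2% and 42.7% of falling genes, 3.96%, 12.7% and 40.4% of rising genes and 4.12%, 17.1% and 41.4% of all. The gap between falling and rising genes was widest in the middle class and small in the shortest and longest. A match is a description of the sequence and not of binding, and no test was made.

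**Figure D5:**
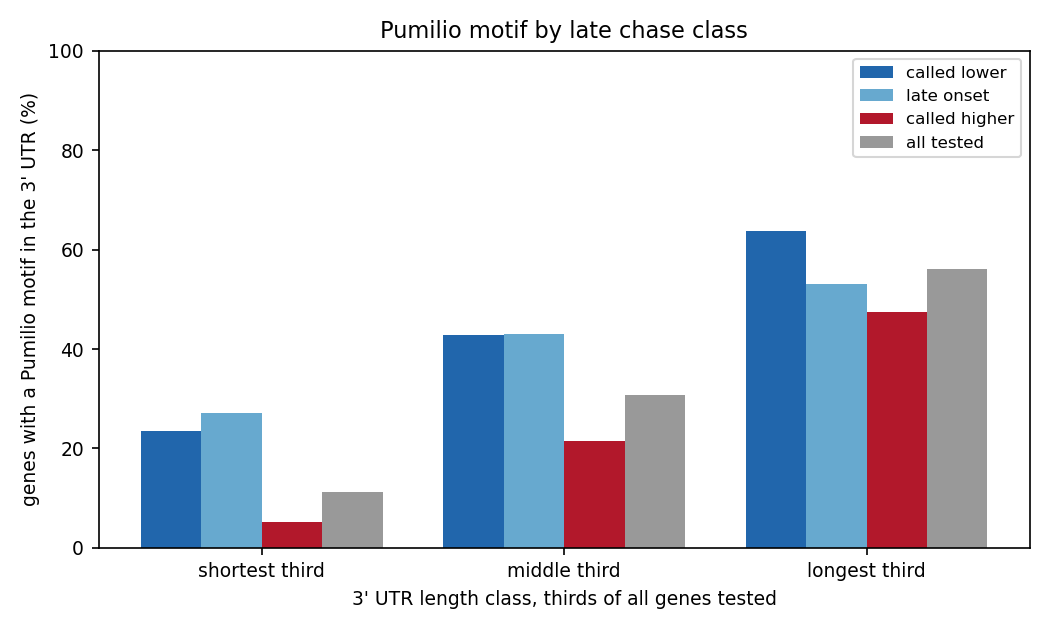
Share of genes with a Pumilio motif in the 3′ UTR (percent, y axis) in 3 classes of UTR length (x axis), for genes called lower, late-onset genes, genes called higher and all genes tested. Bars for genes called lower stand at 23.4, 42.9 and 63.8% and for genes called higher at 5.15, 21.5 and 47.4%. The sets were called with TMM scaling and were not matched for length within a class.

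By kind of gene, 18.5% of 11845 protein-coding genes fell and 16.2% rose, against 6.53% and 4.36% of 2066 lncRNAs. In total RNA of the same lines, the median level was 34.5 CPM for genes that fell, 69.5 CPM for late-onset genes and 61.4 CPM for genes that rose, beside 16.6 CPM over all genes tested. Levels and calls are not independent, since more counts give smaller errors.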

How the data were processed

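BRIC-seq of A375 and the MIR211 line was analysed at 0, 1, 3 and 6 h, with 1 library each. The authors deposited raw counts per gene, with no normalization. Per the submitters' processing notes, the tools were HISAT2 2.1.0 and StringTie. These notes name hg19 as the build and the design text hg38, so coordinates and symbols come from GENCODE 44 (hg38), matched by gene ID. A symbol was available for 41209 of 60675 IDs (67.9%). Of the 16594 genes tested, 211 were not in GENCODE 44. How strand and multi-mapping reads were handled is not given in the sources used here, so antisense and overlapping genes and near-identical copies are uncertain. A row labelled BRIC, which names no gene, entered neither the library sizes nor the tests of the main fit (0.000108% to 0.00122% of counts). It set the library sizes only in the alternative that holds it constant.

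Counts were tested with edgeR 4.0.16 in R 4.3.3 (TMM scaling, quasi-likelihood fit, filterByExpr with minimum count 10 and total 15, Benjamini-Hochberg adjusted p under 0.05) on all 8 libraries, with time as a factor and line as a term (3 residual degrees of freedom). The line pairs the 6 h and 3 h libraries by design. Standard errors come from the F statistic, as |log2| over its square root. The code was tested on simulated data. DESeq2 1.42.0, other scalings and filters, left-out libraries and a fit without the line term were alternatives. Genes were named by rule: the 12 largest falls and rises that passed, with a mean log2 CPM of 5 or more and of the same sign in both lines, 8 late-onset genes at 4 or more, and up to 4 members per list with the smallest p. Other list members and genes marked as such were chosen after their values were seen. The comparison and the 33 gene lists were chosen with earlier results of these data known.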

Additional observations from a re-analysis of the deposited data

Results flagged for a closer look

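The row labelled BRIC, which names no gene and was used only as an alternative scaling, held 81 counts in the MIR211 line and 80 in A375 at 6 h, against 36 and 31 counts at 3 h. The exact 95% Poisson intervals at 6 h were 64.3 to 100.7 and 63.4 to 99.6 counts, against 0.62 to 8.77 for the 3 counts of each line at 0 h. Its late log2 change on TMM-scaled counts was 1.62 in the MIR211 line and 1.89 in A375. What the row counts is not given in the sources used here.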

How the results depend on the processing

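Of the genes called lower and higher late, 2414 and 2509 as reported (49.0% lower), RLE size factors gave 1908 and 3049 (38.5% lower), DESeq2 1948 and 2958, total counts 4904 and 786 (86.2%), glycolysis genes constant 9876 and 19 (99.8%), and the BRIC row constant, chosen after seeing the data, 11049 and 21 (99.8%). The median of all genes shifted by 0.17, 0.17, -0.58, -1.45 and -1.75. Without a count filter 2091 and 1646 were called. Leaving out 1 library gave 912 to 1358 lower and 882 to 1866 higher. The line pairs the libraries, and with no replicate block, the line term being left out, 574 were called lower and 481 higher.

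Genes with a negative and a positive rate difference, 563 and 334, became 264 and 346 with RLE factors, 776 and 317 with total counts, 1108 and 313 with glycolysis constant, 11 and 628 with the BRIC row constant, 898 and 828 with DESeq2, 480 and 119 without a filter, 417 and 572 at a mean of at least 5 CPM, 306 and 240 for protein-coding genes alone (chosen after seeing the data), 51 and 59 with the early rate from 0 h to 1 h, 0 and 0 with no replicate block, and 0 to 1 and 0 when 1 library was left out. With no replicate block, 2299 genes had an unadjusted p under 0.05. The BRIC row held only 3 counts at 0 h in each line, so the rate counts with that row constant rest on an imprecise scaling. Of the 352 late-onset genes, 183 passed both tests with RLE factors and 324 with DESeq2.

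Among single genes, relative to the shifted median, the log2 change with 1 library left out ranged from -1.11 to 1.67 for MIR211, -1.20 to 0.59 for KRT10, -0.66 to 1.41 for DCN, -0.73 to 1.31 for COL1A2, -0.32 to 1.86 for DUSP6, -0.036 to 1.93 for ZNF791 and -0.69 to 0.66 for ZBTB6, so that the sign turned. ZBTB6 also turned without A375 at 3 h (-0.24), without a filter (-0.040) and in the 4 late libraries alone (-0.035). None of these 7 genes was called as reported. The cause was not tested. With 1 library per line and time, and 3 residual degrees of freedom, genes under a few CPM could not be resolved.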
